A study of Mus musculus with 9 samples.

Results

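Homeobox patterning transcription factors were followed as ribosome footprints in mouse striatal cell lines with and without expanded huntingtin. The members were the 122 of 36410 genes in the deposited table whose symbol belongs to the Hox clusters or to 15 other homeobox families, namely Dlx, Emx, Gsx, Irx, Isl, Lhx, Meis, Msx, Nkx, Otx, Pax, Pbx, Prrx, Pou and the sine oculis-related homeobox genes. They were picked by symbol, with no use of a measured value, and consisted of 39 Hox genes and 83 others. The data are Ribo-seq, that is, sequencing of the 26 to 32 nt RNA fragments that ribosomes shield from nuclease, from 9 libraries. Control cells (STHdhQ7/Q7, 3 libraries) carry Htt alleles coding for 7 glutamines, HD-het cells (STHdhQ7/Q111, 3 libraries) carry 1 such allele and 1 allele coding for 111 glutamines, and HD-homo cells (STHdhQ111/Q111, 3 libraries) carry 2 alleles coding for 111 glutamines. The labels give C57/BL6 as the strain of all lines, name a knock-in Htt exon 1 in each of them, the control included, and list 10 min of cycloheximide for every library. All are immortalized cells from the striatum of mouse embryos that divide in culture. Each genotype is 1 cell line, so genotype and line cannot be told apart, and since the labels do not say that the libraries of a line came from separate cultures, the p-values measure the spread between these libraries only.

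Homeobox genes encode transcription factors that bind DNA through a homeodomain and set the identity of body regions and cell types. Hox genes lie in 4 clusters and are numbered by paralog group, and in vertebrate embryos low-numbered genes begin anteriorly, in the hindbrain, while high-numbered genes begin in the trunk and tail. The forebrain, from which the striatum arises, is a region where Hox genes are normally not expressed. It is patterned by other families instead: Gsx, Dlx, Nkx2-1, Lhx6, Lhx8 and Isl1 act in the ventral ganglionic eminences, and Pax6, Emx, Lhx2 and Otx in dorsal and anterior territories. Pbx and Meis proteins are the homeodomain cofactors that bind DNA together with Hox proteins.

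The promoters of 4 members are shown because these genes held the contrasts described below: Hoxa5 and Hoxa7, near neighbours in the HoxA cluster that both had almost no footprint in HD-het cells but differed in their change from control to HD-homo cells, and Pou3f3 and Lhx1, which lost their footprints in HD-homo cells. Each run is the 250 bases before the start of the gene in RefSeq, build GRCm38.p6, read along the strand of the gene, with CG dinucleotides in capitals.
Hoxa5, chr6:52204588-52204837, minus strand, inside the annotated span of Hoxa3: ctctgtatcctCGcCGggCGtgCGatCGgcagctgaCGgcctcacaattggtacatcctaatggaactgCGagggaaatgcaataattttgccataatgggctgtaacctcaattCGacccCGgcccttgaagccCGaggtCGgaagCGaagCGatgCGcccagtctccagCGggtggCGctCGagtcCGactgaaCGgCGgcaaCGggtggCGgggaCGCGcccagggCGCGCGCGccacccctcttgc
Hoxa7, chr6:52218574-52218823, minus strand: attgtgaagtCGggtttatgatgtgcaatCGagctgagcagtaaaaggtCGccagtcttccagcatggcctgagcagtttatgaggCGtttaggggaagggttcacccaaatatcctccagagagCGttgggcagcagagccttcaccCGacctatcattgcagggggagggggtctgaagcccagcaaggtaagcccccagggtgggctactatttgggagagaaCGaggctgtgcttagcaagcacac
Pou3f3, chr1:42695518-42695767, plus strand: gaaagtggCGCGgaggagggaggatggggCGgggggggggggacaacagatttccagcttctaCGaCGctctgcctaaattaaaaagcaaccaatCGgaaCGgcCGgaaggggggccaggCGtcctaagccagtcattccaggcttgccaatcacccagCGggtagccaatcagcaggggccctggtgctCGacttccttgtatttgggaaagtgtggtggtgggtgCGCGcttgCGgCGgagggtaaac
Lhx1, chr11:84525535-84525784, minus strand, overlapping the start of the noncoding gene Lhx1os: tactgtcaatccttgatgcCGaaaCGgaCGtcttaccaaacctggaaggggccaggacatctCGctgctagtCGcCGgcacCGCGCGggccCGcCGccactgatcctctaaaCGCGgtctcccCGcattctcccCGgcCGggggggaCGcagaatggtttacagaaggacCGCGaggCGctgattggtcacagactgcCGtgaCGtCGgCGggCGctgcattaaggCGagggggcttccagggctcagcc
CG dinucleotides numbered 28 before Hoxa5, 7 before Hoxa7, 15 before Pou3f3 and 26 before Lhx1. The RefSeq promoter table held 84 of the 122 members with 101 starts, at a median of 14 CG per 250 bases, beside 12.5 for the 24 starts of 22 Hox genes and 6 over all 32851 starts. TATAAA was found on either strand in 9.90% of the member windows, in 16.7% (4) of the 24 Hox windows and in 12.4% of all windows. The Pbx and Hox composite motif was searched as TGATTNAT on both strands. It was in 3.96% of member windows, 8.33% (2) of the 24 Hox windows and 2.83% of all windows, and in none of the 4 shown.

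Depth ran from 22504543 to 41888701 counts per library. Levels are given as CPM, counts per 1000000 of the library total scaled for composition, in the order of libraries 1, 2 and 3 or as mean ± SD (n = 3). A level of 3 counts was taken as an approximate upper limit for a count of 0. It corresponds to between 0.0714 and 0.142 CPM, for counting error only. Htt itself had 28.7 ± 1.07 CPM for control, 20.3 ± 0.818 for HD-het and 6.62 ± 0.971 for HD-homo. Of the 122 members, 15 had no count in any library, 20 had between 1 and 10 counts in all, and 62 passed the filter on low counts and were tested, 23 of them Hox genes. Members with a mean of at least 1 CPM numbered 40 for control, 31 for HD-het and 40 for HD-homo cells. A member that passed the filter through the line where it was high had to differ from a line where it was low, so counts over tested members describe these genes and support nothing. Values are footprint abundances, and a smaller share of expressing cells cannot be told apart from less RNA or fewer ribosomes per cell.

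The label "Striatal" was set against marker genes. Of 12 markers of mature striatal neurons, Drd1, Drd2 and Slc32a1, the dopamine receptors and the GABA transporter, had no count in any line, and the list summed to between 4.54 and 18.2 CPM per library, most of it Ppp1r1b. Ventral forebrain markers (18 genes) summed to 131 to 140 CPM for control, 144 to 172.5 for HD-het and 137 to 155 for HD-homo libraries, with Foxp1 and Ebf1 present and Gsx2 at 0 throughout. Neural progenitor markers (11 genes) summed to 9586 to 9857 CPM for control, 9017 to 9843 for HD-het and 5992 to 6527 for HD-homo libraries, nearly all of it Vim, while Nes averaged 399.5, 1086 and 7.01 CPM and Sox2 51.1, 33.9 and 2.26 CPM in the same order. Neural crest and mesenchyme markers (19 genes) summed to 2793 to 4997 CPM, 16360 to 20690 CPM and 5834 to 7236 CPM, led by Col1a1. Col1a1 alone averaged 3343, 16520 and 4567 CPM, and Col3a1 and Pdgfrb were also highest in HD-het. By contrast, Col1a2 (24.0, 88.9 and 1027 CPM), Pdgfra (3.81, 6.85 and 155 CPM), Sox9 and Dcn were highest in HD-homo. Endothelial and pericyte markers (13 genes) summed to 55.2 to 87.6, 261 to 373 and 75.2 to 108.5 CPM. Cspg4 led these sums, at 54, 271 and 56.3 CPM on average. Kdr averaged 0.422, 1.75 and 0.299 CPM. Pecam1, Cdh5, Tek, Tie1, Rgs5 and Abcc9 averaged at most 0.327 CPM in any line, and Kcnj8 was at 0 in every line. Pan-neuronal markers (11 genes) summed to 219 to 261 CPM for control, 141 to 156 for HD-het and 148 to 158 for HD-homo libraries, with Stmn2 at 87.4, 8.58 and 6.08 CPM on average. Nefm fell as well (3.04, 0.65 and 0.314 CPM), but Tubb3 (101, 84.1 and 102 CPM) and Map2 (46.5, 55.3 and 44.3 CPM) showed no fall of that size. Dorsal forebrain markers (8 genes) summed to 17.3 to 18.9, 29.4 to 32.2 and 14.2 to 20.7 CPM, nearly all of it Emx2 and Lhx2. These went opposite ways in HD-homo, with averages of 8.24, 8.89 and 15.6 CPM for Emx2 and 9.49, 21.7 and 0.712 CPM for Lhx2. Each of the rest averaged at most 0.174 CPM in any line, with no count for Neurog1 or Neurog2. Microglial and blood markers (9 genes) reached at most 9.597 CPM and glial markers (10 genes) 15.0 CPM in any library. The part of these differences in the results below was not tested.

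Ribosome footprints on Hox genes were plentiful in control and HD-homo cells and nearly absent in HD-het cells. Summed over the 39 genes, footprints came to 63.2, 56.2 and 76.0 CPM in the control libraries, 3.83, 2.91 and 3.83 CPM in HD-het and 76.3, 114.8 and 88.0 CPM in HD-homo. Every HD-het library thus lay far under every other library, at a mean of 5.41% of control, and the control and HD-homo libraries did not overlap, although HD-homo library 1 lay just above control library 3. HoxB supplied most of the signal, with a mean of 53.9 CPM for control, 2.91 for HD-het and 75.2 for HD-homo. HoxA had 3.30, 0.216 and 8.71 CPM, HoxC 5.42, 0.174 and 5.40 CPM, and HoxD 2.56, 0.229 and 3.73 CPM, so the fall in HD-het cells held in each of the 4 clusters. Hox genes with no count at all numbered 5 for control, 14 for HD-het and 4 for HD-homo cells, and those with a mean of at least 1 CPM numbered 11, 1 and 15.

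**Figure D1:**
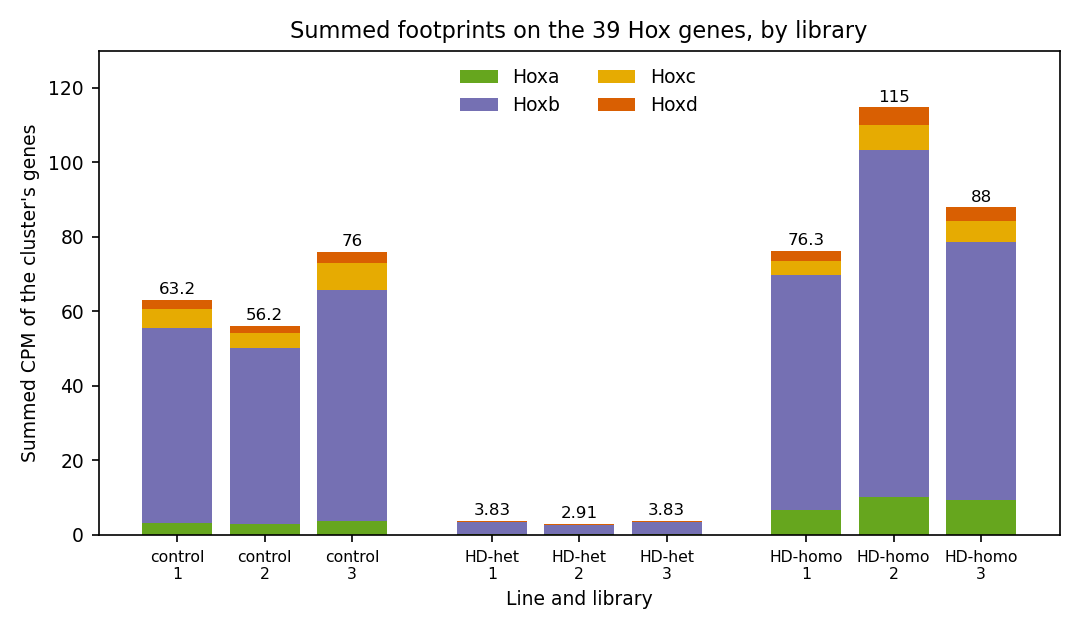
Summed CPM of the 39 Hox genes in each of the 9 libraries, with the 4 clusters stacked in colour and the total above each bar. The HD-het totals of 2.91 to 3.83 CPM lie under the control totals of 56.2 to 76.0 and the HD-homo totals of 76.3 to 114.8, and HoxB makes up most of every bar.

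In the comparison of HD-het with control cells, 21 of 23 tested Hox genes were lower and 0 higher, where 29.1% of all 12678 genes tested were lower and 31% higher. The fitted log2 fold changes had a median of -4.20, or -3.64 with the genes lacking any HD-het count set at their bound, beside 0.02 over all genes. A fall of at least 4-fold was called for all 21, or 19 with those bounds, and for 2.01% of all genes. Counted over all 39 genes with no filter, the HD-het mean lay under the control mean in 33 and above it in 2, and both were 0 in 4. Genes of few counts are included, such as Hoxa11 with 15 over all libraries, and no share of all genes is given for this count. Of the tested genes, Hoxa2 (log2 fold change 0.14 ± 1.18, adjusted p = 0.925) and Hoxa5 (log2 fold change -1.81 ± 0.81, adjusted p = 0.0725) were not called, and the means of both were at or under the level of 3 counts in both lines.

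**Figure D2:**
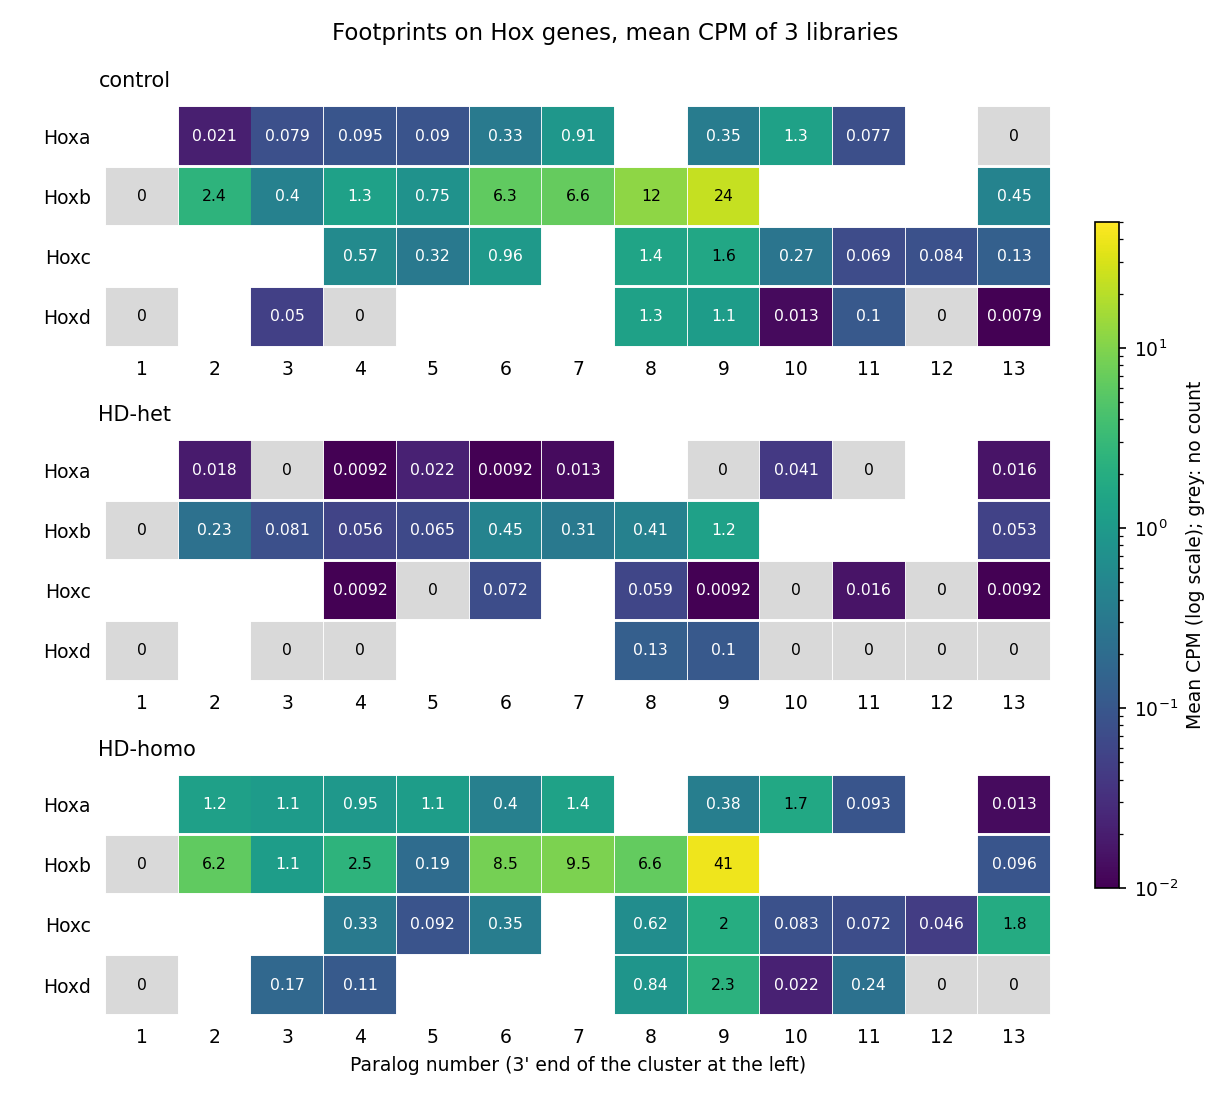
Mean CPM of 3 libraries for Hox genes, in 1 panel per line, with clusters as rows, paralog numbers as columns, colour on a log scale, grey for genes with no count and blank where no gene exists or no value is given. Values are per gene and not per length, so they compare lines and not genes. Control and HD-homo cells share the block around Hoxb6 to Hoxb9, HD-het cells reach 1 CPM for Hoxb9 alone, and Hoxa2 to Hoxa5 stand out in HD-homo cells.

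Hoxb9, a posterior gene that helps pattern the thorax, was the Hox gene with the highest level per coding kilobase in every line, at 31.7, 1.67 and 54.2 CPM per kb for the control, HD-het and HD-homo lines. Its libraries read 24.4, 20.2 and 26.7 CPM for control, 1.404, 0.8799 and 1.47 for HD-het and 30.3, 54.3 and 37.2 for HD-homo. The HD-het libraries lay far below both other lines, and the HD-homo libraries all lay above control, with library 2 the highest. It was lower in HD-het (log2 fold change -4.29 ± 0.27, adjusted p = 3.71e-07) and higher in HD-homo than in control (log2 fold change 0.77 ± 0.20, adjusted p = 0.00873). The share of all Hox counts that fell on Hoxb9 was 36.4% for control, 34.7% for HD-het and 43.3% for HD-homo.

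Hoxb8, which acts in trunk and spinal cord patterning, read 11.3, 9.92 and 14.3 CPM for control, 0.417, 0.467 and 0.331 for HD-het and 5.48, 7.88 and 6.34 for HD-homo. Unlike Hoxb9, it was lower than control in both HD lines, HD-het (log2 fold change -4.82 ± 0.24, adjusted p = 6.86e-08) and HD-homo (log2 fold change -0.85 ± 0.17, adjusted p = 0.001801), with HD-homo above HD-het (log2 fold change 3.96 ± 0.25, adjusted p = 1.46e-07). Hoxb7 read 5.84, 5.73 and 8.16, 0.342, 0.2200 and 0.378 and 9.09, 9.595 and 9.67 CPM in the same order of lines. It fell in HD-het (log2 fold change -4.43 ± 0.24, adjusted p = 1.15e-07) and rose in HD-homo (log2 fold change 0.53 ± 0.16, adjusted p = 0.0176), although the rise was no longer called without control library 1 or 2 (adjusted p = 0.0860 and 0.0856). Hoxb6 read 6.22, 6.52 and 6.28, 0.569, 0.275 and 0.5201 and 8.68, 9.82 and 7.05 CPM. It fell in HD-het (log2 fold change -3.85 ± 0.23, adjusted p = 2.91e-07), and its HD-homo difference from control did not pass the threshold (log2 fold change 0.43 ± 0.17, adjusted p = 0.0542), though it did without HD-het library 2 or HD-homo library 3 (adjusted p = 0.0384 and 0.0224), with DESeq2 (0.0414), with total-count scaling (0.0447) and in the fit of only the 6 libraries compared (0.0448).

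At the anterior end of HoxB, Hoxb2, a hindbrain gene, read 2.06, 2.31 and 2.97 CPM for control, 0.304, 0.192 and 0.189 for HD-het and 5.92, 7.19 and 5.45 for HD-homo. The 3 lines did not overlap, with HD-het lowest (log2 fold change -3.40 ± 0.28, adjusted p = 2.29e-06) and HD-homo highest (log2 fold change 1.34 ± 0.18, adjusted p = 0.0001103). Hoxb4, known for its role in hindbrain and blood stem cells, read 0.8400, 1.24 and 1.77, 0.03795, 0.0825 and 0.0473 and 2.03, 3.06 and 2.26 CPM. Its HD-het libraries held 5 counts in all, so that control was higher by 21.4-fold (95% counting interval 8.92 to 67.1). The HD-homo rise (log2 fold change 0.93 ± 0.27, adjusted p = 0.0147) was lost without control library 1, control library 2 or HD-homo library 2, at adjusted p up to 0.0660. Hoxb5 was the exception among the tested HoxB genes in not differing between the HD lines (log2 fold change 1.37 ± 0.69, adjusted p = 0.0974). It averaged 0.753 ± 0.0753 CPM in control and only 0.0651 ± 0.0392 and 0.194 ± 0.163 CPM in HD-het and HD-homo. Hoxb3, whose annotated span overlaps Hoxb4, averaged 0.403 ± 0.123, 0.0808 ± 0.0379 and 1.12 ± 0.0183 CPM. Hoxb13, not tested, had 41, 4 and 9 counts over the 3 libraries of each line, and Hoxb1 none.

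The anterior HoxA genes Hoxa2 to Hoxa5, which act in hindbrain, pharyngeal arches and neck, were at or below 0.0948 CPM on average in control and at 0.0218 CPM or less in HD-het cells, and rose in HD-homo cells. Hoxa2 read 0.973, 1.45 and 1.197 CPM in the HD-homo libraries, against 2 counts over all control libraries, or 56.00-fold (95% counting interval 15.1 to 469) higher. Hoxa3 read 0.695, 1.26 and 1.197 CPM in HD-homo and was 13.6-fold (95% counting interval 6.32 to 34.8) above control, with no count in HD-het. Hoxa4 read 0.834, 0.994 and 1.02 CPM and was 9.83-fold (95% counting interval 4.92 to 22.3) above control. Hoxa5, a gene of the lung and neck region, read 0.862, 1.15 and 1.29 CPM and was 11.2-fold (95% counting interval 5.64 to 25.3) above control. All 4 were called higher in HD-homo than in control (log2 fold changes 5.57 ± 0.56, 3.72 ± 0.46, 3.25 ± 0.36 and 3.46 ± 0.39, adjusted p = 1.07e-05, 0.0001401, 2.19e-05 and 2.66e-05), and all 3 HD-homo libraries lay above every other library for each. The spans of Hoxa3 to Hoxa6 overlap in the annotation and 22.2% of the 28-base stretches of the Hoxa2 coding sequence also occur in the read-through gene Gm28308, so fragments may be shared among these rows.

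The next HoxA genes along the cluster were not called between HD-homo and control cells. Hoxa7 averaged 0.907 ± 0.205 CPM in control and 1.36 ± 0.09402 in HD-homo (log2 fold change 0.55 ± 0.26, adjusted p = 0.102), but had 1 count in HD-het. Hoxa10, a gene of the lower trunk and reproductive tract, averaged 1.32 ± 0.242 and 1.65 ± 0.4097 CPM (log2 fold change 0.32 ± 0.28, adjusted p = 0.381) and had 3 counts in HD-het, 35.7-fold (95% counting interval 11.9 to 175) under control. Hoxa9 averaged 0.351 ± 0.0616 and 0.375 ± 0.0183 CPM with none in HD-het, at least 3.12-fold lower than control, and Hoxa6 0.329 ± 0.121 and 0.398 ± 0.175 CPM with 1 count. Hoxa6 and Hoxa9 were not called in HD-homo either (log2 fold change 0.30 ± 0.45, adjusted p = 0.629; log2 fold change 0.11 ± 0.31, adjusted p = 0.811), and all 4 genes were called lower in HD-het. Hoxa11 and Hoxa13 held under 10 counts in every line.

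Hoxc13, which is known from hair and nail, stood apart in HoxC. It read 0.0382, 0.166 and 0.188 CPM for control, 0, 0.0275 and 0 for HD-het and 1.28, 1.68 and 2.53 for HD-homo, a rise in HD-homo over control (log2 fold change 3.68 ± 0.43, adjusted p = 3.85e-05) in all 3 libraries. Trunk genes of the cluster went the other way or stayed level in HD-homo cells. Hoxc8 averaged 1.45 ± 0.472 CPM in control and 0.624 ± 0.235 in HD-homo (log2 fold change -1.21 ± 0.33, adjusted p = 0.0108), and Hoxc6 0.956 ± 0.172 and 0.354 ± 0.162 (log2 fold change -1.40 ± 0.33, adjusted p = 0.00458), whereas Hoxc9 averaged 1.58 ± 0.603 and 1.97 ± 0.924 (log2 fold change 0.33 ± 0.37, adjusted p = 0.509). Hoxc4 averaged 0.566 ± 0.0975, 0.00917 ± 0.0159 and 0.326 ± 0.184 CPM in control, HD-het and HD-homo. All 5 of these were lower in HD-het, Hoxc9 with 1 count there against 141 in control. Hoxc5, Hoxc10, Hoxc11 and Hoxc12 were not tested and averaged at most 0.316 CPM in any line. In HoxD, Hoxd9 averaged 1.06 ± 0.179, 0.104 ± 0.0443 and 2.34 ± 0.723 CPM in control, HD-het and HD-homo and rose in HD-homo (log2 fold change 1.15 ± 0.27, adjusted p = 0.00535), and Hoxd8 averaged 1.33 ± 0.275, 0.125 ± 0.0375 and 0.842 ± 0.229 CPM with no call in HD-homo (log2 fold change -0.66 ± 0.27, adjusted p = 0.06501). The remaining HoxD genes stayed under 0.25 CPM in every line.

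Over the cluster genes as a whole, HD-homo against control gave 11 Hox genes higher, 4 lower and 8 not past the threshold of 23 tested, where 23.3% of all genes were higher and 22.3% lower. The 4 lower were Hoxb5, Hoxb8, Hoxc6 and Hoxc8. Against HD-het cells, HD-homo cells were higher in 22 Hox genes and lower in 0, where 34.6% of all genes were higher and 32.8% lower. Both comparisons against control use the same control libraries. Of the 21 Hox genes called lower in HD-het, 16 had at most 10 counts over the HD-het libraries, and their fitted values moved by up to 1.95 on the log2 scale (Hoxa7) when 1 library was left out. The calls of Hoxa3, Hoxa4 and Hoxc13 were lost without 2, 2 and 4 of the libraries, at adjusted p up to 0.0615, 0.0762 and 0.0780. For Hoxa3 these were control library 3 and HD-het library 2, for Hoxa4 HD-het libraries 1 and 3, and for Hoxc13 control libraries 2 and 3 and HD-het libraries 1 and 3.

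**Figure D3:**
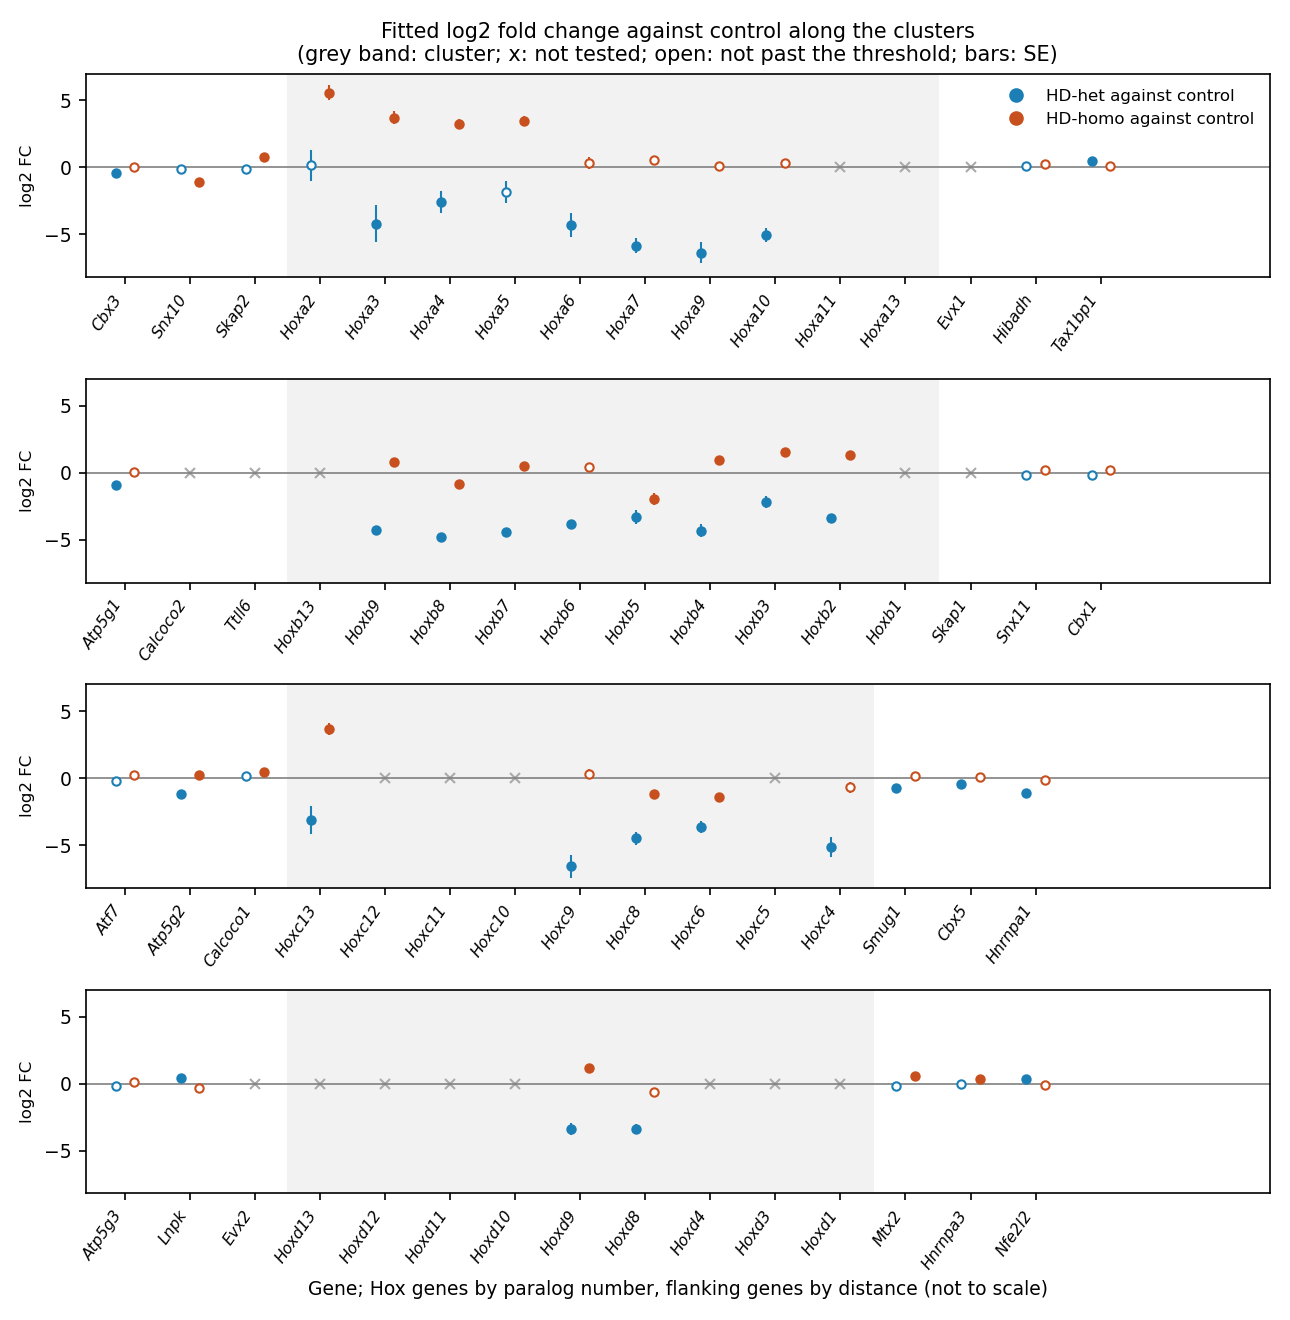
Fitted log2 fold change against control (bars, SE) for Hox genes by paralog number within each cluster, on a grey band, and for the 3 nearest coding genes on each side, with open symbols where the adjusted p was not under 0.05. HD-het differences drop to between -1.81 and -6.58 within the band for all tested Hox genes but Hoxa2, and flanking genes stay between -1.16 and 0.45.

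Of 24 flanking coding genes 19 were tested, and their HD-het log2 fold changes ran from -1.16 to 0.45, with 3 higher and 6 lower, beside 31% and 29.1% of all genes. In HD-homo cells they ran from -1.12 to 0.77, with 5 higher and 1 lower, beside 23.3% and 22.3% of all genes. From HD-het to HD-homo they ran from -0.98 to 1.42 (median 0.41), with 13 higher and 4 lower, beside 34.6% and 32.8%. Evx1 and Evx2, homeobox genes at the ends of HoxA and HoxD, had no count in any library. The 12 rows for antisense and noncoding RNAs of the clusters were also at 0, as were all but 29 of the 10169 long noncoding rows of the table.

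Regulators that keep Hox genes silent or active were counted in the same way. Among 33 Polycomb group genes, which code for repressors of Hox chromatin, 5 were higher and 10 lower in HD-het, with a median log2 fold change of -0.16, beside 31% higher and 29.1% lower of all genes. In HD-homo 6 rose and 5 fell (median 0.06), beside 23.3% and 22.3%. None changed 4-fold, a size that 7.93% of all genes reached in HD-het and 9.58% in HD-homo. Pcgf5 had the largest fall in HD-het (log2 fold change -1.32 ± 0.08, adjusted p = 4.26e-07), from 58.7 ± 2.28 to 23.4 ± 1.62 CPM, followed by Pcgf6 (log2 fold change -0.90 ± 0.09, adjusted p = 8.07e-06), and Bcor (log2 fold change 1.03 ± 0.12, adjusted p = 2.69e-05) and Phc1 (log2 fold change 0.89 ± 0.11, adjusted p = 4.72e-05) had the largest rises. In HD-homo cells Cbx2 (log2 fold change -0.99 ± 0.18, adjusted p = 0.00101) and Bcorl1 (log2 fold change -0.91 ± 0.17, adjusted p = 0.00124) fell most and Phc1 (log2 fold change 0.75 ± 0.11, adjusted p = 0.000235) and Aebp2 (log2 fold change 0.67 ± 0.08, adjusted p = 5.13e-05) rose most. Of 20 Trithorax group and H3K27 demethylase genes, which counter Polycomb, 3 were higher and 4 lower in HD-het (median -0.08) and 0 higher and 9 lower in HD-homo (median -0.21), none at 4-fold, beside the shares of all genes just given. Kmt2a, the methyltransferase best known for upholding Hox expression, averaged 27.6 ± 1.54, 43.3 ± 3.28 and 13.8 ± 2.64 CPM in control, HD-het and HD-homo, and rose in HD-het (log2 fold change 0.65 ± 0.13, adjusted p = 0.000988) and fell in HD-homo (log2 fold change -0.9997 ± 0.13, adjusted p = 7.93e-05). Kdm6b also rose in HD-het (log2 fold change 0.93 ± 0.17, adjusted p = 0.000561), Dpy30 (log2 fold change -1.37 ± 0.13, adjusted p = 7.64e-06) and Kmt2d (log2 fold change -0.40 ± 0.10, adjusted p = 0.00544) fell there, and Kdm6a, an H3K27 demethylase, fell in HD-homo (log2 fold change -1.12 ± 0.13, adjusted p = 3.91e-05).

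The TALE cofactors of Hox proteins were present in all lines. Pbx2 (10.2, 8.87 and 8.34 CPM) and Pbx3 (16.2, 17.2 and 16.9 CPM on average) passed no test between lines, with all 6 log2 fold changes between -0.29 and 0.08. Pbx4 averaged 2.06 ± 0.134, 1.16 ± 0.3404 and 1.73 ± 0.322 CPM and was lower in HD-het (log2 fold change -0.82 ± 0.23, adjusted p = 0.00983). Pbx4 was not called between HD-homo and control (log2 fold change -0.23 ± 0.22, adjusted p = 0.417).

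All 3 Meis genes were higher in HD-het than in control. Meis2, which is also a marker of the developing striatum, read 27.5, 23.8 and 26.3 CPM for control, 41.2, 34.3 and 38.9 for HD-het and 8.09, 11.7 and 11.97 for HD-homo. The lines did not overlap, with a rise in HD-het (log2 fold change 0.56 ± 0.14, adjusted p = 0.00474) and a fall in HD-homo (log2 fold change -1.30 ± 0.15, adjusted p = 2.61e-05). Meis1 read 3.398, 3.52 and 3.01, 6.95, 6.79 and 10.3 and 3.09, 2.98 and 3.41 CPM, higher in HD-het (log2 fold change 1.26 ± 0.17, adjusted p = 9.64e-05) and with overlapping control and HD-homo libraries (log2 fold change -0.07 ± 0.18, adjusted p = 0.776). Meis3 averaged 1.38 ± 0.332, 2.16 ± 0.344 and 0.695 ± 0.171 CPM. Its rise in HD-het (log2 fold change 0.66 ± 0.24, adjusted p = 0.0308) was lost without control library 1 or 2 or HD-het library 1 or 3, at adjusted p up to 0.143, and its fall in HD-homo (log2 fold change -0.93 ± 0.27, adjusted p = 0.0152) without control library 3, at adjusted p = 0.0613.

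Few ventral forebrain genes had footprints, and of those tested Dlx1, Dlx2 and Lhx6 were lower in HD-het cells. Dlx2, a driver of GABAergic neuron formation in the ganglionic eminences, read 8.36, 7.92 and 11.5 CPM for control, 2.05, 1.35 and 2.93 for HD-het and 11.4, 25.2 and 23.2 for HD-homo. All HD-het libraries lay below control (log2 fold change -2.18 ± 0.34, adjusted p = 0.000245), and HD-homo was higher than control (log2 fold change 1.10 ± 0.29, adjusted p = 0.00956) although its library 1 lay under control library 3. Dlx1, its neighbour and partner gene, read 2.79, 2.97 and 2.37, 1.48, 1.51 and 2.51 and 3.84, 4.01 and 4.21 CPM. HD-het library 3 lay within the control range, and all HD-homo libraries lay above it. Dlx1 passed the threshold as lower in HD-het (log2 fold change -0.60 ± 0.21, adjusted p = 0.02796) and higher in HD-homo (log2 fold change 0.56 ± 0.20, adjusted p = 0.0359), yet the first call was lost without control library 1 or 2 or HD-het library 1 or 2, at adjusted p up to 0.112, and the second without any control or any HD-homo library, at adjusted p up to 0.115, and with a replicate block (adjusted p = 0.0551). The rise from HD-het to HD-homo (log2 fold change 1.16 ± 0.21, adjusted p = 0.000414) was called whichever library was left out. Dlx3, Dlx4, Dlx5 and Dlx6 were low, and Dlx5 and Dlx6 had 0 counts in control, 16 and 2 in HD-het and 31 and 12 in HD-homo. Dlx5 reached 0.222, 0.382 and 0.576 CPM in the HD-homo libraries.

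The other ventral genes were close to absent. Gsx2 and Nkx2-1, which specify the lateral and medial ganglionic eminences, had no count in any library, and Isl1, a gene of direct-pathway striatal neurons, had 1 count in control. Gsx1 had 6 counts over the control libraries, 66 over HD-het and 0 over HD-homo, with 1.101, 0.852 and 0.284 CPM in the HD-het libraries, at least 6.75-fold above HD-homo. Lhx6, a factor of interneurons from the medial eminence, read 1.11, 0.904 and 1.88 CPM for control, 0.228, 0.385 and 0.425 for HD-het and 1.502, 0.956 and 1.37 for HD-homo. It was lower in HD-het (log2 fold change -1.87 ± 0.37, adjusted p = 0.00117) and did not differ past the threshold between HD-homo and control (log2 fold change 0.02 ± 0.30, adjusted p = 0.973). Lhx8 had 5, 4 and 0 counts in the 3 lines.

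Dorsal and anterior forebrain genes Pax6, Lhx2 and Otx1 were present in HD-het cells and fell in HD-homo cells. Pax6, a paired-box factor of dorsal progenitors and the eye, read 17.1, 16.1 and 18.8 CPM for control, 26.3, 23.3 and 24.7 for HD-het and 0.139, 0 and 0.0887 for HD-homo. HD-het libraries were all above control (log2 fold change 0.52 ± 0.14, adjusted p = 0.00848), and HD-homo held 7 counts in all, 207-fold (95% counting interval 100.2 to 516) under control (fitted log2 fold change -7.64 ± 0.28, adjusted p = 3.47e-09). Without HD-homo library 1, which held 5 of them, the fitted value was -8.57. Lhx2, a LIM factor of cortex and eye, read 10.3, 9.09 and 9.102, 23.4, 21.1 and 20.6 and 0.306, 0.765 and 1.06 CPM, with a rise in HD-het (log2 fold change 1.20 ± 0.19, adjusted p = 0.000233) and a fall in HD-homo (log2 fold change -3.83 ± 0.26, adjusted p = 4.69e-07). Otx1, of the forebrain and midbrain, read 7.52, 7.85 and 8.46, 9.91, 9.51 and 9.31 and 0.667, 0.726 and 0.576 CPM. It fell in HD-homo (log2 fold change -3.58 ± 0.15, adjusted p = 7.84e-09), and its HD-het difference lay at the threshold (log2 fold change 0.27 ± 0.11, adjusted p = 0.0527), passing it without any 1 of the HD-homo libraries (adjusted p between 0.0423 and 0.0482), with RLE scaling (0.0399), with at least 10 counts in every library (0.0300) and in the fit of only the 6 libraries compared (0.0297). Otx2 had no count in any library.

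Emx2 broke this pattern. It read 8.44, 8.11 and 8.16 CPM for control, 8.69, 9.38 and 8.605 for HD-het and 13.8, 13.5 and 19.6 for HD-homo, where it was the dorsal gene that rose (log2 fold change 0.92 ± 0.14, adjusted p = 0.000313) while control and HD-het did not differ past the threshold (log2 fold change 0.11 ± 0.15, adjusted p = 0.5202). Emx1 had 1, 6 and 6 counts.

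**Figure D4:**
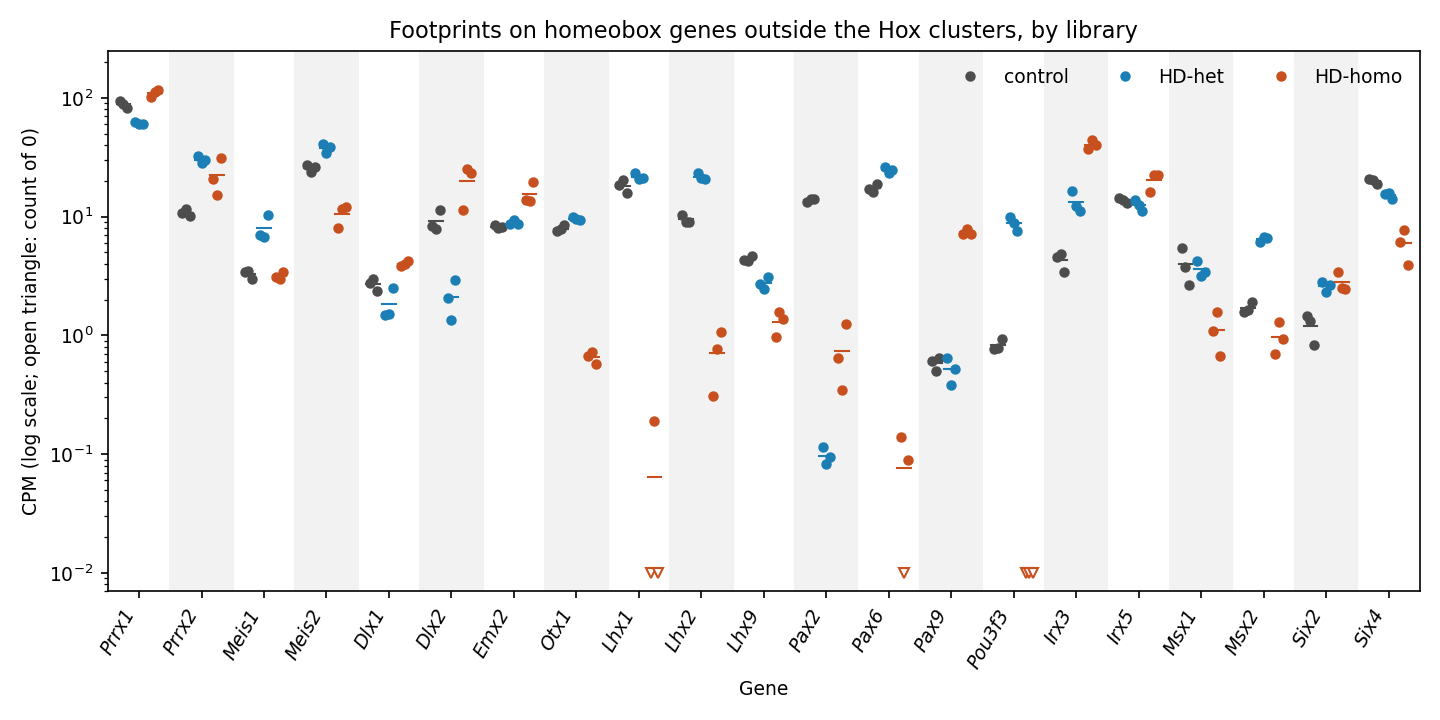
CPM on a log scale for 21 members outside the Hox clusters, with 1 point per library, a bar at the mean of 3 libraries and open triangles at the foot for counts of 0. Lhx1, Pax6 and Pou3f3 drop to 0 or near it in HD-homo, Pax2 drops in HD-het, and Pax9 and Irx3 stand highest in HD-homo.

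Among the other LIM genes, Lhx1, a gene of the midbrain, spinal interneurons and kidney, read 18.4, 20.5 and 15.8 CPM for control, 23.5, 20.8 and 20.99 for HD-het and 0, 0.191 and 0 for HD-homo. Control and HD-het did not differ past the threshold (log2 fold change 0.25 ± 0.19, adjusted p = 0.274). HD-homo had 5 counts, all in library 2, and lay 315-fold (95% counting interval 135 to 971) under control (fitted log2 fold change -8.17 ± 0.39, adjusted p = 2.46e-08). The fitted value was -12.08 without that library and -7.42 without HD-homo library 1. Lhx9 read 4.28, 4.23 and 4.63, 2.73, 2.47 and 3.12 and 0.973, 1.57 and 1.37 CPM, falling in HD-het (log2 fold change -0.67 ± 0.18, adjusted p = 0.00663) and in HD-homo (log2 fold change -1.76 ± 0.19, adjusted p = 1.93e-05), where it was also below HD-het (log2 fold change -1.10 ± 0.20, adjusted p = 0.000459). Lhx5, not tested, had 25, 30 and 2 counts, and Lhx3 none.

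The Pax family split 4 ways. Pax2, a gene of the midbrain-hindbrain boundary and kidney, read 13.3, 14.1 and 14.2 CPM for control, 0.114, 0.0825 and 0.0946 for HD-het and 0.6396, 0.344 and 1.24 for HD-homo. The HD-het libraries held 8 counts in all, 146-fold (95% counting interval 73.7 to 338) under control, and HD-homo was lower as well (log2 fold change -4.26 ± 0.27, adjusted p = 2.24e-07). Its close relative Pax8 was in control alone at a steady level (0.573, 0.523 and 0.639 CPM), with 1 count in HD-het and 5 in HD-homo, while Pax5, the other gene of that subgroup, had 4, 0 and 0 counts. Pax9, which acts in pharyngeal pouches, teeth and vertebrae, read 0.611, 0.499 and 0.639 CPM for control, 0.645, 0.385 and 0.5201 for HD-het and 7.203, 7.88 and 7.09 for HD-homo. It rose in HD-homo (log2 fold change 3.68 ± 0.19, adjusted p = 5.06e-08) with no call in HD-het (log2 fold change -0.18 ± 0.26, adjusted p = 0.593). Pax1, its paralog, had 0, 1 and 15 counts. The span of Pax9 overlaps the coding gene Slc25a21, and that of Pax6 overlaps Elp4. Pax3, of dorsal neural tube and neural crest, averaged 1.84 ± 0.281, 1.34 ± 0.324 and 1.04 ± 0.463 CPM, and its fall in HD-homo (log2 fold change -0.83 ± 0.30, adjusted p = 0.03900) was lost without control library 1 or 2, HD-het library 1, or HD-homo library 1 or 3, at adjusted p up to 0.125.

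POU genes of class III, which promote neural progenitor and neuron programmes, formed a group found in HD-het cells. Pou3f3 read 0.764, 0.785 and 0.9403 CPM in control, 9.94, 8.94 and 7.56 in HD-het and 0 in each HD-homo library. It rose in HD-het (log2 fold change 3.41 ± 0.19, adjusted p = 8.86e-07), and HD-homo was at least 7.52-fold lower than control and at least 79.9-fold lower than HD-het. Pou3f2 read 1.59, 1.24 and 2.03 CPM in HD-het against 5 counts over the control libraries, 29.4-fold (95% counting interval 12.3 to 92.1) higher, and none in HD-homo. Pou3f1 averaged 0.688 ± 0.148 CPM in HD-het with 4 and 2 counts over control and HD-homo, and Pou3f4 0.599 ± 0.0529 CPM with 2 and 0 counts. All 4 were called higher in HD-het than in control and lower in HD-homo than in HD-het.

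The other POU genes moved less. Pou2f1, a broadly expressed octamer factor whose span overlaps Cd247, read 16.2, 15.6 and 15.3 CPM for control, 13.1, 12.1 and 14.4 for HD-het and 10.8, 11.05 and 9.31 for HD-homo. It was lower in HD-homo (log2 fold change -0.60 ± 0.11, adjusted p = 0.000854), and in HD-het it missed the threshold (log2 fold change -0.26 ± 0.11, adjusted p = 0.0559) but passed it without HD-het library 3 or HD-homo library 2 or 3 (adjusted p = 0.0258, 0.0456 and 0.0417), with total-count scaling (0.0302), with no filter (0.0484) and in the fit of only the 6 libraries compared (0.0348). Its difference between the HD lines (log2 fold change -0.34 ± 0.11, adjusted p = 0.01502) was lost without HD-het library 3 or HD-homo library 3 (adjusted p = 0.0545 and 0.0549) and with total-count scaling (0.0578). Pou6f1 read 2.100, 2.09 and 2.41, 2.54, 2.75 and 1.51 and 2.98, 4.17 and 3.33 CPM, and its rise in HD-homo over control (log2 fold change 0.66 ± 0.22, adjusted p = 0.0285) was lost without control library 1 or 2 or HD-homo library 2 (adjusted p = 0.0898, 0.0912 and 0.0893). Its rise over HD-het (log2 fold change 0.59 ± 0.22, adjusted p = 0.0332) was lost without HD-het library 3 or HD-homo library 2 (adjusted p = 0.0961 and 0.112) and in the fit of only the 6 libraries compared (0.0709). Pou5f1, the pluripotency factor Oct4, had 1 count in all 9 libraries.

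The tested Iroquois genes Irx2, Irx3 and Irx5, of a family that patterns neural plate, heart and limb, were highest in HD-homo cells. Irx3 read 4.54, 4.88 and 3.42 CPM for control, 16.4, 12.3 and 11.1 for HD-het and 36.9, 44.6 and 39.9 for HD-homo. The 3 lines did not overlap and rose in that order, with HD-het over control (log2 fold change 1.62 ± 0.17, adjusted p = 1.48e-05) and HD-homo over HD-het (log2 fold change 1.61 ± 0.16, adjusted p = 4.91e-06). Its cluster neighbour Irx5 read 14.5, 13.9 and 13.01, 13.8, 12.6 and 11.3 and 16.02, 22.4 and 22.6 CPM, higher in HD-homo (log2 fold change 0.55 ± 0.14, adjusted p = 0.00699) with no call in HD-het (log2 fold change -0.14 ± 0.14, adjusted p = 0.422). Irx2 read 0.305, 0.357 and 0.1505, 0.493, 0.577 and 0.804 and 3.03, 2.29 and 3.55 CPM, higher in HD-homo (log2 fold change 3.37 ± 0.31, adjusted p = 4.50e-06). Its rise in HD-het (log2 fold change 1.11 ± 0.37, adjusted p = 0.0212) was lost without control library 3 or HD-het library 3 (adjusted p = 0.0719 and 0.0738). Irx1, Irx4 and Irx6 were not tested. Irx4 had 2, 8 and 7 counts over control, HD-het and HD-homo libraries, Irx1 4, 18 and 33, and Irx6 8, 22 and 31, and 6.30% of the 28-base stretches of the Irx3 coding sequence occur in another gene, chiefly Irx6.

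Genes typical of mesenchyme and cranial tissue included the most abundant member. Prrx1, a limb and craniofacial mesenchyme factor, had the highest level per coding kilobase of all members, at 120.2, 83.6 and 149.7 CPM per kb in control, HD-het and HD-homo. It read 94.01, 88.9 and 82.2 CPM for control, 63.3, 60.2 and 60.8 for HD-het and 102, 111 and 117 for HD-homo, with no overlap between lines, a fall in HD-het (log2 fold change -0.52 ± 0.08, adjusted p = 0.000246) and a small rise in HD-homo (log2 fold change 0.32 ± 0.08, adjusted p = 0.00882). Prrx2 read 10.7, 11.5 and 10.1, 32.5, 28.5 and 29.8 and 20.9, 15.3 and 31.4 CPM, higher than control in HD-het (log2 fold change 1.49 ± 0.21, adjusted p = 9.97e-05) and in HD-homo (log2 fold change 1.06 ± 0.21, adjusted p = 0.00157). The HD lines did not differ past the threshold (log2 fold change -0.43 ± 0.20, adjusted p = 0.0779), although HD-homo was called lower without its library 3 (log2 fold change -0.73, adjusted p = 0.0011). Msx2, of bone, skin and teeth, read 1.57, 1.64 and 1.92, 6.15, 6.76 and 6.57 and 0.695, 1.300 and 0.931 CPM, up in HD-het (log2 fold change 1.93 ± 0.19, adjusted p = 8.16e-06) and down in HD-homo (log2 fold change -0.83 ± 0.22, adjusted p = 0.0109). Msx1 read 5.42, 3.81 and 2.67, 4.21, 3.19 and 3.404 and 1.08, 1.57 and 0.665 CPM, down in HD-homo (log2 fold change -1.82 ± 0.31, adjusted p = 0.000601) with control and HD-het overlapping (log2 fold change -0.14 ± 0.27, adjusted p = 0.679). The summed mesenchyme markers given above were highest in HD-het libraries, a sum led by Col1a1. In HD-het, Prrx1 was lowest, Msx2 was highest and Prrx2 overlapped with HD-homo. Like Prrx1, the markers Col1a2, Pdgfra, Sox9 and Dcn were highest in HD-homo, while Col3a1 and Pdgfrb were highest in HD-het.

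Sine oculis-related genes, which act in placodes, muscle and kidney, differed gene by gene. Six4, whose span overlaps Mnat1, read 20.7, 20.4 and 18.7, 15.5, 15.8 and 13.99 and 6.15, 7.76 and 3.95 CPM and fell in HD-homo (log2 fold change -1.74 ± 0.18, adjusted p = 1.59e-05). The HD-het difference of Six4 missed the threshold (log2 fold change -0.40 ± 0.17, adjusted p = 0.0653) but passed it without HD-homo library 2 or 3 (adjusted p = 0.0210 and 0.00893), with total-count scaling (0.0493), with no filter (0.0411), with a replicate block (0.0445) and in the fit of only the 6 libraries compared (0.0030), and the HD-het libraries were all below control. Six2, a nephron progenitor factor, read 1.45, 1.33 and 0.827, 2.81, 2.31 and 2.65 and 3.39, 2.52 and 2.48 CPM, higher in HD-het (log2 fold change 1.09 ± 0.23, adjusted p = 0.001701) and in HD-homo (log2 fold change 1.22 ± 0.23, adjusted p = 0.001101) than in control. The HD lines overlapped for Six2 (log2 fold change 0.13 ± 0.21, adjusted p = 0.599). Six5 rose in HD-homo (log2 fold change 0.87 ± 0.27, adjusted p = 0.02101), a call lost without control library 1 (adjusted p = 0.0879), and the forebrain and eye gene Six3 had 27, 9 and 5 counts.

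The Nkx family was nearly empty. Of its 14 genes, 3 had no count and Nkx2-5, the cardiac factor, was the only one tested. It averaged 0.866 ± 0.0325 CPM in control, 0.404 ± 0.265 in HD-het and had 2 counts in HD-homo, 36.6-fold (95% counting interval 9.82 to 307) under control. Its fall in HD-het (log2 fold change -1.18 ± 0.43, adjusted p = 0.0338) was lost without any control library or HD-het library 1 or 2, at adjusted p up to 0.147.

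**Figure D5:**
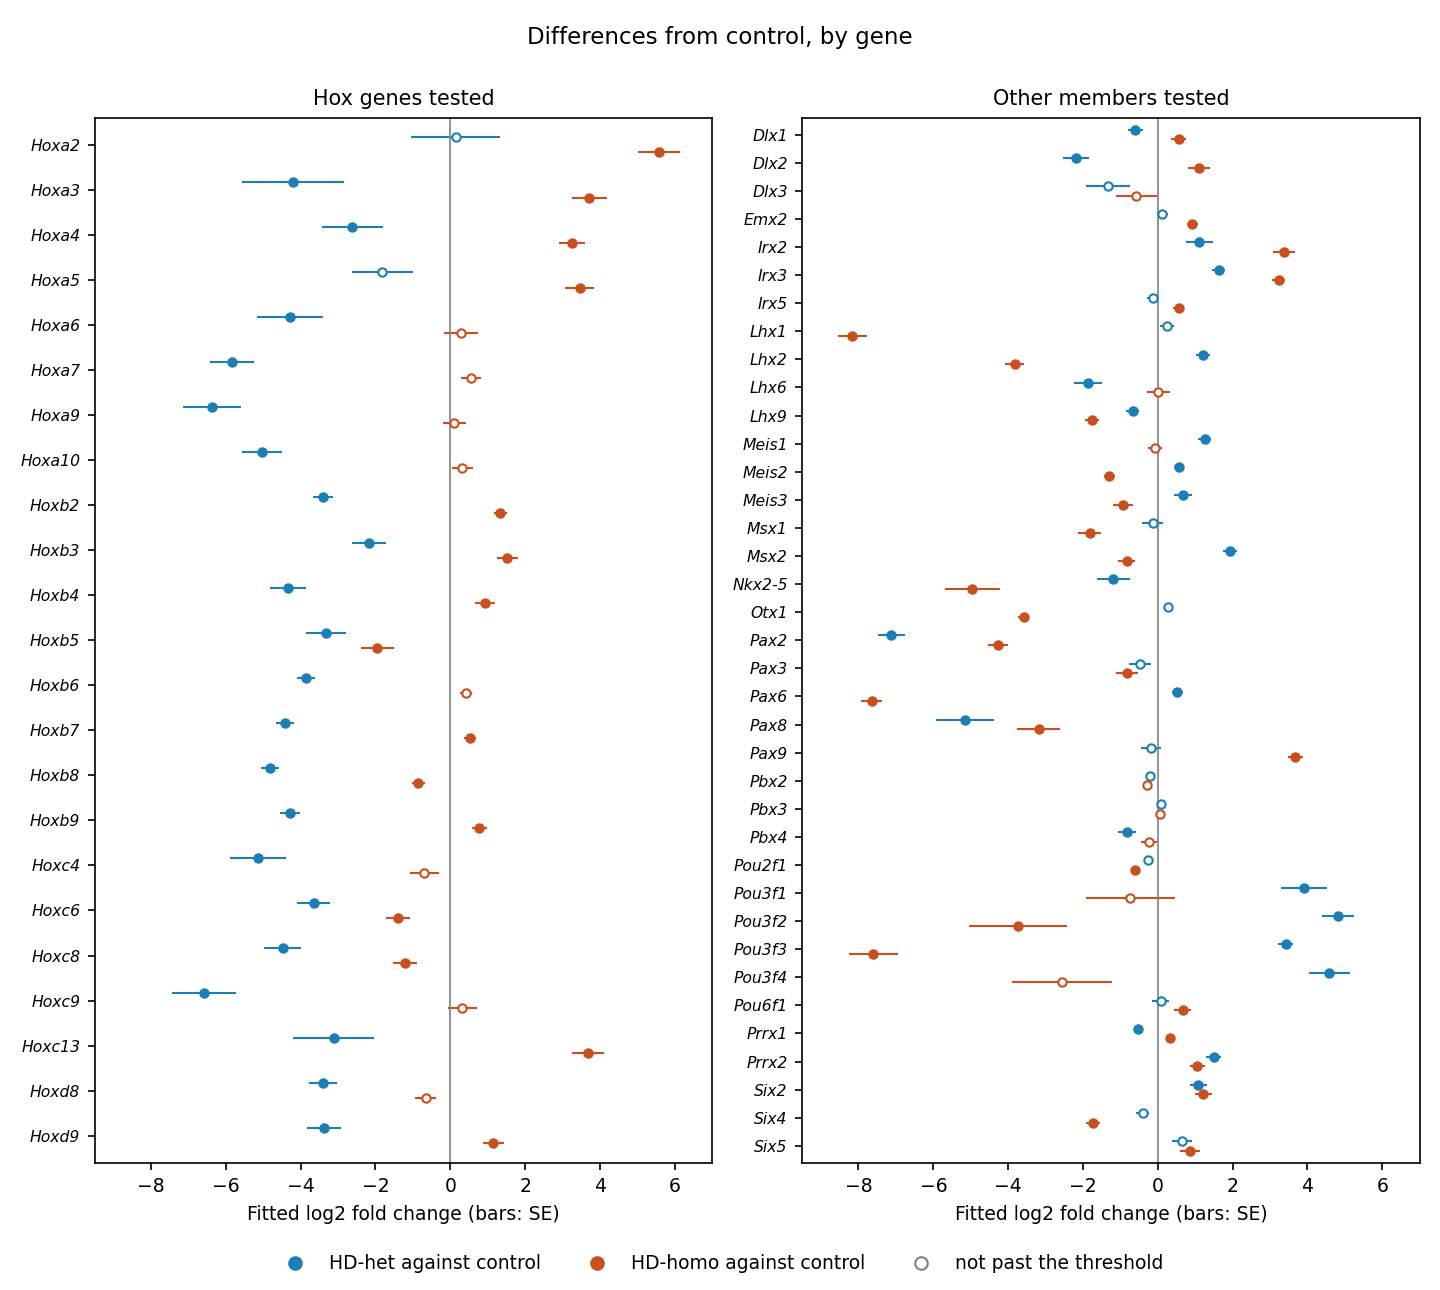
Fitted log2 fold change ± SE against control for 60 tested members, Hox genes at the left and others at the right, with HD-het in blue, HD-homo in orange and open symbols where the adjusted p was not under 0.05. All tested Hox genes but Hoxa2 lie left of 0 in HD-het, while the other members spread to both sides in both lines.

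Counted over the 39 tested members outside the Hox clusters, 16 were higher and 9 lower in HD-het, where 31% and 29.1% of all genes were. In HD-homo 12 were higher and 18 lower than in control, where 23.3% and 22.3% of all genes were, and 12 higher and 19 lower than in HD-het, where 34.6% and 32.8% were. Over all 62 tested members, 58 differed among the 3 lines in the joint test, where 78.4% of all genes did. Across the comparisons 8 members were up in HD-het and down in HD-homo against the shared control, Lhx2, Meis2, Meis3, Msx2, Pax6, Pou3f2 and Pou3f3 among them, and none was a Hox gene. Another 12 were down in HD-het and up in HD-homo, 9 of them Hox genes, beside Dlx1, Dlx2 and Prrx1. No share of all genes with either pattern is given here, so these counts describe the members only. The call of Pou3f2 in HD-homo rests on 5 control counts and was lost without any 1 of 7 libraries, namely each control and HD-homo library and HD-het library 1, at adjusted p up to 0.124. Leaving out 1 library at a time cost 18 of 144 calls of tested members in at least 1 of the refits. Of the 18, the call of Pbx4 between the HD lines (log2 fold change 0.59 ± 0.24, adjusted p = 0.0462) was the other to be lost without 7 libraries, those other than HD-het library 1 and HD-homo library 2, at adjusted p up to 0.168.

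Replicates of a line were close for most members. Among members with a mean of at least 1 CPM, the median coefficient of variation was 10.2% for control, 10.9% for HD-het and 18.6% for HD-homo libraries, and the widest was 46.9%, in HD-homo. The 60 members not tested reached at most 0.746 CPM on average in any line, for Gsx1, and 45 of them had at least 1 count.

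Homeobox genes outside the named families were mostly low or absent too. Of 86 such genes 85 had a row, 30 were tested and 11 had no count, with 4 higher and 6 lower in HD-het (median log2 fold change -0.06), beside 31% and 29.1% of all genes. In HD-homo 3 were higher and 13 lower (median -0.25), beside 23.3% and 22.3%. Cdx2, a caudal factor known to switch on trunk Hox genes, read 14.4, 10.8 and 12.5 CPM for control, 0.721, 0.6599 and 0.142 for HD-het and 0.0556, 0 and 0.133 for HD-homo. It fell in HD-het (log2 fold change -4.53 ± 0.33, adjusted p = 1.09e-06) and in HD-homo (log2 fold change -7.63 ± 0.46, adjusted p = 1.83e-07). Hhex also fell in HD-het (log2 fold change -0.81 ± 0.21, adjusted p = 0.00606), while Vax2, a ventral eye factor, rose there (log2 fold change 5.23 ± 0.37, adjusted p = 8.72e-07) and in HD-homo (log2 fold change 5.96 ± 0.35, adjusted p = 1.27e-07). Hdx read 2.21, 2.52 and 3.08 CPM in control with none in HD-homo.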

How the data were processed

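Ribosome-protected fragments of 26 to 32 nt were sequenced from 9 libraries, 3 for each of 3 striatal lines. Cells were treated with cycloheximide, fragments were recovered from 80S monosomes and ribosomal RNA was depleted. The submitters' processing notes name cutadapt, Bowtie 1.0.1 and mm10. The deposited table holds raw counts per gene, not normalized, for 36410 genes, of which 19597 are at 0 in every library. The annotation, the use of strand and the treatment of fragments that match several genes are not given in the sources used here, so overlapping and near-identical genes may share counts.

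Library totals ran from 22504543 to 41888701, and intervals and floors cover counting error only. The counts were fitted with edgeR 4.0.16 (TMM factors, filterByExpr by line, quasi-likelihood F test) in R 4.3.3 over all 9 libraries, and p-values were Benjamini-Hochberg adjusted over the 12678 genes tested, with 0.05 as the threshold. The standard error is the log2 fold change divided by the square root of F. CPM are counts per 1000000 of the TMM-scaled total. Where a line had between 1 and 10 counts, the ratio of summed scaled counts is given with an exact 95% interval, and where it had none, the fold is a lower bound against 3 counts per library. Coding lengths came from GENCODE annotation of GRCm38 and promoters from RefSeq. The calculations were tested on simulated data.

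Values by library are given for members called in at least 1 comparison with a mean of at least 1 CPM in their highest line, at most 32 by that mean, and for 17 forebrain genes whatever their values. A few genes that meet this rule or belong to the lists are not reported here. Other members named were chosen after their values were seen. The members, gene lists and rules were chosen with earlier results of these data known. Alternatives were RLE and total-count scaling, other filters, DESeq2 1.42.0, fits of only the 6 libraries compared, a replicate block, a 2-fold minimum, a stricter threshold of 0.01 and leaving out each library.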

Additional observations from a re-analysis of the deposited data

How the results depend on the processing

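With at least 10 counts required in every library, 29 members were tested, and 12 were higher and 7 lower in HD-het than in control, 12 higher and 11 lower in HD-homo than in control, 11 higher and 12 lower in HD-homo than in HD-het, and 26 differed among the lines, because that filter removes members that are absent from a line. Only 2 Hox genes were tested with that filter, and both were lower in HD-het than in control. Shares of all genes are not given for this or the following settings. With a 2-fold minimum, HD-homo exceeded control in 14 members. Leaving out 1 library at a time gave 17 to 20 members higher and 26 to 32 lower in HD-het than in control, 20 to 27 higher and 20 to 23 lower in HD-homo than in control, 33 to 36 higher and 19 to 21 lower in HD-homo than in HD-het, and 59 to 63 differing among the lines. Hox genes lower in HD-het numbered 19 to 22 in those fits, 20 with DESeq2 and 26 of 36 without a filter. Correlations of deviations between libraries of the same number ran from -0.356 to 0.175, beside -0.275 to 0.376 for different numbers. They gave no sign that the replicate numbers pair the libraries, but so few libraries cannot exclude it. A fit with the number as a replicate block gave 16 members higher and 31 lower in HD-het, 22 higher and 20 lower in HD-homo, 34 higher and 19 lower in HD-homo than in HD-het, and 57 differing among the lines.

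Of 1457 comparisons of the 31 named tested members with their reported values, 1392 kept direction and side of the threshold, 27 lost the call, 24 gained one and 14 changed sign, all of these for differences that were not called. Lhx6 between HD-homo and control became -0.004915 with no filter, -0.002089 with DESeq2, -0.08923 and -0.2185 without control library 1 and 2, -0.003659, -0.003614 and -0.0004109 without HD-het library 1, 2 and 3, and -0.1353 and -0.02289 without HD-homo library 1 and 3, with a highest value of 0.3668 without control library 3. Between HD-het and control, Pax9 became 0.01624 without HD-het library 2 (lowest -0.3982), Msx1 0.1191 without control library 1 (lowest -0.3516), and Pou6f1 -0.01501 and -0.1139 without HD-het library 1 and 2 (highest 0.2554). Six2 between the HD lines became -0.03875 without HD-homo library 1 (highest 0.2133). The cause of these changes was not tested. Depth limits members under about 10 counts in a line, for which fitted values depend on single counts.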
